A study of Mus musculus with 26 samples.

Results

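The genes described here encode the Eph receptors, their ephrin ligands, the semaphorins, the plexins and the neuropilins. The families were picked with earlier results of these data known, and their members were then taken by symbol, whatever their values, as every row of the deposited count table named Epha, Ephb, Efna or Efnb with a number, Sema with a number and a letter, Plxna, Plxnb, Plxnc or Plxnd with a number, Nrp1 or Nrp2. This gave 53 of the 55391 rows that carry a gene symbol. The counts come from EA1, EA2 and EA3, murine lung cancer cell lines from C57BL/6 mice that carry the EML4-ALK fusion, an oncogenic receptor tyrosine kinase. Cells were cultured with 100 nM alectinib, an ALK inhibitor, or with its solvent DMSO at 0.1%, and RNA was sequenced after 1, 2, 3 and 5 days, with 1 library each, which gives 6 groups of 4 libraries. Day 2 stands in the titles and time labels, whereas the deposited treatment protocol does not list it, and the titles were followed. The lines have separate origins, so a difference between lines cannot be told apart from a difference in the history of a line. The libraries of a group are different days of the same line, and p-values therefore measure the spread between these days.

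Ephrins are held on the cell surface, and an Eph receptor, a receptor tyrosine kinase, meets its ligand on a neighbouring cell. EphA receptors mainly bind the lipid-anchored ephrin-A ligands and EphB receptors the transmembrane ephrin-B ligands, while Epha4 binds both kinds. Class 3 semaphorins are secreted and act through neuropilins paired with A-type or D-type plexins, whereas semaphorins of the higher classes are bound to the membrane and mostly bind plexins directly. Both systems are known from axon guidance and from vessel growth. In epithelial tumours they are studied for their part in cell adhesion, movement and invasion.

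Total counts of the 24 libraries ran from 5780062 to 11732401 with a median of 9252878. Levels are given as CPM, counts scaled to a common library size with edgeR's TMM factors, and 4 values in a row are always days 1, 2, 3 and 5. Where 2 such series follow each other, DMSO comes first and alectinib second. The epithelial markers Krt8, Krt18, Krt19, Cdh1, Epcam and Cldn4 summed to between 4633 and 9253 CPM with DMSO and 3245 and 5367 with alectinib in EA1, 1811 and 2695 with DMSO and 567 and 1169 with alectinib in EA2, and 4740.4 and 6839.7 with DMSO and 3079.8 and 7151 with alectinib in EA3. Krt18 fell in every line, at -1.51, -1.79 and -1.13 on the log2 scale, and Krt8 fell in EA2, at -2.61, whereas Cdh1 rose in EA2 and EA3, at 1.55 and 0.65, and Epcam in EA1, at 2.45. Epcam averaged 1.35 CPM with DMSO and 6.54 with alectinib in EA1, and 0.494 and 0 in EA2, where its fall did not pass. Cldn4 averaged at most 0.291 CPM in any group of EA1 and EA2. In EA3 with DMSO, Epcam averaged 132 CPM and Cldn4 123. The lung epithelial markers Nkx2-1, Sftpc, Sftpb and Napsa summed to at most 1.42 CPM in every DMSO library. Endothelial markers summed to at most 9.89 CPM in any library. Immune markers reached 92.1 CPM, nearly all of it Cd68, while Ptprc, Cd3E and Lyz2 did not exceed 10 counts in any library. Of 5 fibroblast markers tested, 4, 2 and 4 were higher with alectinib in EA1, EA2 and EA3 and none was lower, while Pdgfra passed in no line. Among all tested genes, 19.0%, 13% and 17.5% were higher and 14.6%, 11.3% and 15.1% lower in these lines, which is the background for each marker count given here. The fibroblast sum went from between 8.34 and 43.0 CPM to between 81.4 and 220.4 CPM in EA1, from between 57.9 and 71.2 to between 120 and 239 in EA2, and from between 10.2 and 20.1 to between 84.4 and 249 in EA3. Thy1 did not exceed 2 counts in any library. Of 3 neuronal markers tested, 1 was higher and 0 lower for EA1, 1 and 2 for EA2, and 1 and 1 for EA3. On the log2 scale, Tubb3 changed by 2.02 in EA1 and -2.38 in EA2, Snap25 by -4.27 in EA2 and -4.74 in EA3, and Map2 by 2.05 in EA2 and 3.57 in EA3, and Rbfox3 did not exceed 2 counts. The neuronal sum ran from 5.56 to 90.8 CPM with DMSO and from 23.4 to 150.3 with alectinib. The part of these markers in the results that follow was not tested. The MAPK targets Etv4, Etv5, Dusp6 and Spry4 were lower with alectinib in every line, and their median log2 fold change was -3.87 for EA1, -6.62 for EA2 and -4.26 for EA3. The pair of libraries labelled EA3 day 7 stood apart. Their log2 levels correlated at 0.967 and 0.986 with EA2 and at 0.887 and 0.875 with EA3 of the same treatment, and they entered no value given here unless stated.

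Of the 53 genes, 45 had enough counts to be tested among 14264 genes. The other 8 were Epha3, Epha6, Epha8, Epha10, Ephb1, Plxnc1, Sema3G and Sema5B, none of which exceeded 10 counts in any library. Plxnc1, a receptor of Sema7A, reached the highest of these with 41 counts over the 12 alectinib libraries and 6 over the 12 DMSO libraries. Its pooled ratios with 95% counting intervals were 5.03 (1.46 to 26.8) in EA1, 5.89 (1.25 to 55.3) in EA2 and 11.7 (1.78 to 496) in EA3, which is a comparison of pooled libraries without a test over replicates.

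Alectinib changed 30 of the 45 tested genes in at least 1 line (edgeR's quasi-likelihood test, adjusted p under 0.05), beside 53.2% of all tested genes. In EA1, 16 genes were higher and 9 lower, beside 19.0% and 14.6% of all tested genes. In EA2, 11 were higher and 7 lower, beside 13% and 11.3%. In EA3, 14 were higher and 7 lower, beside 17.5% and 15.1%. The same 11 genes were higher in all 3 lines, beside 5.78% of all genes, and they were Epha4, Epha7, Ephb3, Ephb6, Sema3A, Sema3D, Sema3F, Sema4F, Plxna1, Plxnb3 and Nrp1. Of these, Sema3D and Plxnb3 did not pass the count filter in the DMSO libraries alone. They entered the test through the alectinib libraries, so their place in this count is not independent of their rise. Sema7A was the 1 gene lower in all 3 lines, beside 4.23% of all genes. The median log2 fold change over the 45 genes was 0.46 for EA1, 0.26 for EA2 and 0.11 for EA3, beside 0.06, 0.00 and 0.07 over all tested genes.

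**Figure D1:**
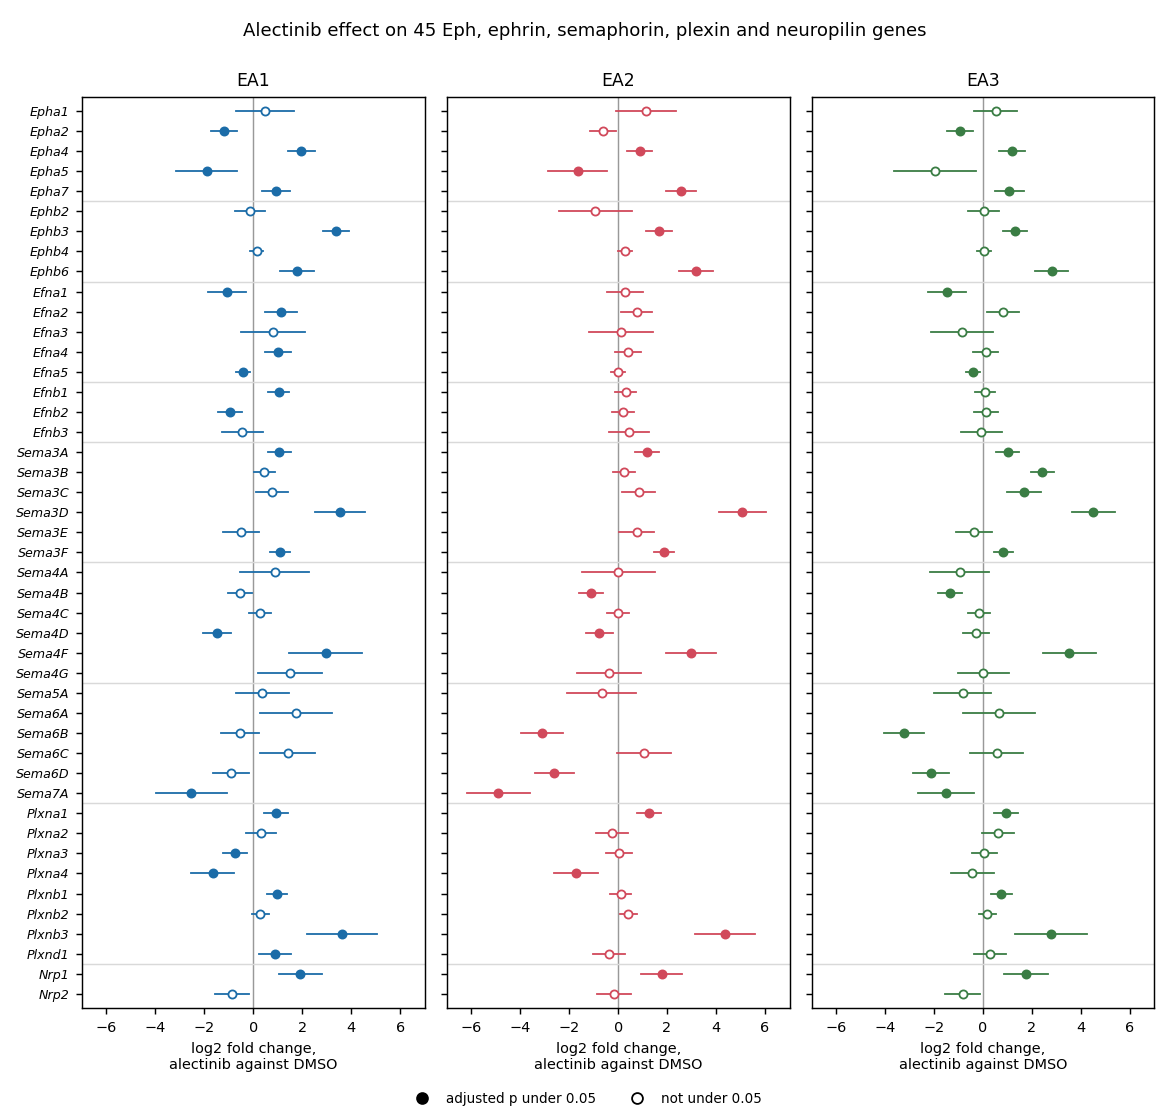
Log2 fold change of alectinib against DMSO for the 45 tested genes in each line, with 95% intervals from edgeR as bars and filled points for an adjusted p under 0.05. Grey lines separate the gene classes, and Sema6A is not drawn in EA2, where it had 0 counts. The points of Sema3D, Plxnb3 and Ephb6 lie on the right in every panel and that of Sema7A lies on the left.

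The 53 genes lie on 19 chromosomes, and a few of them lie close to each other. Sema3D, Sema3A, Sema3E and Sema3C lie in this order on chromosome 5 of GRCm38, from the start of Sema3D at 12383385 to the end of Sema3C at 17730268. Sema3B (chr9:107597674-107609229, minus strand) and Sema3F (chr9:107681500-107710475, minus strand) lie close together, as do Efna1 (chr3:89271733-89281142, minus strand), Efna3 (chr3:89313899-89322965, minus strand) and Efna4 (chr3:89333390-89338028, minus strand). Genes that lie close together did not all pass the test in the same direction, as the values below show.

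Upstream sequence was searched for the letters of 4 factor families, ETS, AP-1, FOXO and TCF/LEF. In the 250 bases before each RefSeq start (GRCm38.p6), available for 47 of the 53 genes, 4 motifs were searched on both strands, with no overlap between motifs, in 61 windows since some genes have several starts. The ETS letters CCGGAAG stood in 2 of the 61 windows, before Ephb6 and Plxnb1, and in 6.91% of all upstream windows. The AP-1 letters TGAGTCA stood in 2 of them, before Sema4C and before an internal start of Sema6B, and in 4.46% of all windows. The TCF/LEF letters CTTTGAT stood in 1, before Nrp2, and in 3.21% of all windows. The FOXO letters GTAAACA stood in 0 of them and in 3.17% of all windows. Sequences are printed for the 3 genes that hold a motif and changed with alectinib, and for Epha7, Ephb3 and Sema7A, which changed in all 3 lines by amounts that differed between lines. Bases that the annotation places in an exon are left out, and capitals mark the motif, which in Plxnb1 is read from the opposite strand. The windows lie at chr6:41605261-41605481 (plus strand) for Ephb6, chr9:109095186-109095388 (plus strand) for Plxnb1, chr17:56133853-56134102 (minus strand) for the internal start of Sema6B, chr4:28812881-28813130 (plus strand) for the first of the overlapping windows of Epha7, chr16:21204545-21204754 (plus strand) for Ephb3 and chr9:57939862-57940111 (plus strand) for Sema7A.
Ephb6: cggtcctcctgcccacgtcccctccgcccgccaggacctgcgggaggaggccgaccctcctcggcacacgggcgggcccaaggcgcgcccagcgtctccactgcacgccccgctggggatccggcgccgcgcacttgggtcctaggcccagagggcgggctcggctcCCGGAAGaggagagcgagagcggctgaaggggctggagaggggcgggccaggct
Plxnb1: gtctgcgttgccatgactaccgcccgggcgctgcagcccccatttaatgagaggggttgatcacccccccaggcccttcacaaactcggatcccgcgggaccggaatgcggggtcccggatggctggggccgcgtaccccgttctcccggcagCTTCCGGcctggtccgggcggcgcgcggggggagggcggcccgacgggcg
Sema6B: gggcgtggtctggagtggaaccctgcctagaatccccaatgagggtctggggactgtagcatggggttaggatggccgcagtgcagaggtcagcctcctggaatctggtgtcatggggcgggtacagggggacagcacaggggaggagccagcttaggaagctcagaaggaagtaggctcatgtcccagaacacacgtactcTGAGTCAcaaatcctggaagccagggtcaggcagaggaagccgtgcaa
Epha7: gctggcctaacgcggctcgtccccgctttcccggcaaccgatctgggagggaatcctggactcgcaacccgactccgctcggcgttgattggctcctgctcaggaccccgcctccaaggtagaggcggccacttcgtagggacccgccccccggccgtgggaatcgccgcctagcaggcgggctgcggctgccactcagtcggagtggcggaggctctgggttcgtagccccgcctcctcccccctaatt
Ephb3: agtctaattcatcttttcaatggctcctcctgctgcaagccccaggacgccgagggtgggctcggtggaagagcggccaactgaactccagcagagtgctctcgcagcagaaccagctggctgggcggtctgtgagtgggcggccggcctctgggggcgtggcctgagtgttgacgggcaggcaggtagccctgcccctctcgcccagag
Sema7A: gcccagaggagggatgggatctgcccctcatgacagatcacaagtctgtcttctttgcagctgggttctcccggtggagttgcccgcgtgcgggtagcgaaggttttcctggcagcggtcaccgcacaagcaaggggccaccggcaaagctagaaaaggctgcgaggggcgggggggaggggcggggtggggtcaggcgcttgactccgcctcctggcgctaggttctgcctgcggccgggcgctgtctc

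The EphA receptors changed in opposite directions, with Epha2 falling and Epha4 and Epha7 rising. Epha2, the main receptor of Efna1 in epithelial cells, was the most abundant EphA gene in all 24 libraries. In EA1, its level was 505, 624, 1766 and 581 CPM with DMSO and 297, 294, 365 and 347 with alectinib. In EA2, the DMSO levels were 569.7, 535, 827 and 555 and the alectinib levels 294, 378, 415 and 542. EA3 gave 449, 306, 584 and 372 with DMSO and 258, 213, 294 and 132 with alectinib. All alectinib libraries of EA1 and EA3 lay below the DMSO libraries of their line, and the day 3 DMSO library of EA1 stood well above the rest. Fitted log2 fold changes were -1.21 (SE 0.25, adjusted p = 0.00267) for EA1, -0.62 (SE 0.24, adjusted p = 0.0819) for EA2 and -0.95 (SE 0.25, adjusted p = 0.00992) for EA3, so that Epha2 fell in EA1 and EA3 and did not pass the threshold in EA2. Without day 3 the EA1 call remained, whereas without day 5 that of EA3 was lost (adjusted p = 0.0548).

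Epha4 (chr1:77367185-77515088, minus strand), which accepts ephrins of both classes, rose in all 3 lines. EA1 held 39.9, 24.3, 19.6 and 15.9 CPM with DMSO and 146, 78.0, 66.5 and 93.8 with alectinib. The corresponding values were 72.4, 71.5, 35.6 and 58.7 and 93.3, 100.2, 94.97 and 139 in EA2. In EA3 they were 107, 41.5, 74.8 and 25.4 and 138, 135, 146 and 85.5. Alectinib was higher on each day in each line, although the groups overlapped in EA3. On the log2 scale the alectinib effect was 1.96 (SE 0.25, adjusted p = 0.0001) for EA1, 0.88 (SE 0.24, adjusted p = 0.0178) for EA2 and 1.19 (SE 0.25, adjusted p = 0.00275) for EA3. The EA2 call was lost without the day block (adjusted p = 0.102) and with day 3 or day 5 left out (adjusted p of 0.15 and 0.0708).

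Epha7 (chr4:28813131-28967499, plus strand), best known from the developing nervous system, rose in all 3 lines, with the largest estimate in EA2. Its EA2 levels were 9.49, 10.1, 7.72 and 8.16 CPM with DMSO and 53.5, 46.0, 62.3 and 49.4 with alectinib. EA1 had 12.4, 14.0, 7.70 and 5.04 with DMSO and 19.3, 20.5, 14.4 and 16.6 with alectinib. EA3 had 13.3, 9.80, 25.7 and 24.2 and 29.3, 35.6, 24.7 and 62.1. The groups did not overlap in EA1 and EA2, and in EA3 the treatments were level on day 3. Alectinib against DMSO gave log2 fold changes of 0.93 (SE 0.27, adjusted p = 0.0194) for EA1, 2.57 (SE 0.28, adjusted p = 3.34e-05) for EA2 and 1.07 (SE 0.27, adjusted p = 0.00861) for EA3. The effect differed between lines (edgeR, 2 degrees of freedom, adjusted p = 0.0294), with EA2 minus EA1 at 1.65 (95% interval 0.82 to 2.47) on the log2 scale. EA3 minus EA2 was -1.50 (95% interval -2.32 to -0.68) and did not pass the threshold (edgeR, adjusted p = 0.052). Using all 26 libraries or leaving out day 1 or day 5 lost the EA1 call (without these days, adjusted p of 0.0517 and 0.149), and leaving out day 2 lost that of EA3 (adjusted p = 0.0878).

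Epha5, another receptor of neural tissue, was low and fell in EA1 and EA2. In EA1 it went from 5.23, 5.12, 8.44 and 4.01 CPM with DMSO to 1.45, 0.980, 2.28 and 1.34 with alectinib, without overlap. EA2 levels were 10.9, 11.0, 20.8 and 22.3 with DMSO and 4.84, 4.42, 11.7 and 1.80 with alectinib. In EA3, where it reached at most 2.64 CPM, 41 counts over the DMSO libraries faced 11 over the alectinib libraries, a pooled ratio of 0.225 (0.104 to 0.445) with the 95% counting interval in parentheses. The log2 fold changes were -1.90 (SE 0.58, adjusted p = 0.0215) for EA1, -1.65 (SE 0.56, adjusted p = 0.0444) for EA2 and -1.97 (SE 0.78, adjusted p = 0.0674) for EA3. The EA2 call was lost without day 1, day 2 or day 5, and that of EA1 without day 2. Epha1, found in epithelia, passed in no line and had log2 fold changes of 0.46, 1.14 and 0.52.

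Counted per kilobase of exon, which allows genes to be compared, the EphA make-up moved with these changes. Epha2 made up 96.8% of the summed EphA level in EA1 with DMSO on average (range 94.3% to 99.0%) and 83.2% with alectinib (75.9% to 88.4%). In EA2, the share was 93.1% (91.5% to 96.4%) and 81.6% (78.2% to 83.7%). In EA3, it was 88.9% (85.8% to 90.1%) and 67.5% (60.5% to 72.3%). The ranges of the treatments did not overlap in any line. Epha4 took the next share with alectinib, at 14.3%, 12.6% and 22.5% in EA1, EA2 and EA3, against 2.17%, 5.49% and 7.30% with DMSO.

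Among the EphB receptors, Ephb3 and Ephb6 rose in every line, as did 5.78% of all tested genes, while Ephb2 and Ephb4 passed in none. Ephb3 (chr16:21204755-21223305, plus strand) is a receptor of ephrin-B ligands known from the ordering of intestinal epithelium. In EA1 it held 7.32, 9.92, 3.42 and 10.3 CPM with DMSO and 52.2, 78.4, 86.5 and 94.6 with alectinib. EA2 values were 6.72, 3.72, 6.01 and 5.93 with DMSO and 20.9, 14.7, 13.9 and 21.8 with alectinib. In EA3 they were 28.9, 25.0, 18.9 and 33.3 and 62.4, 64.4, 51.5 and 86.6. No line had overlapping groups, and the alectinib libraries of EA2 were the lowest of the 3 treated groups. Fitted log2 fold changes were 3.37 (SE 0.25, adjusted p = 4.51e-06) for EA1, 1.66 (SE 0.25, adjusted p = 0.000319) for EA2 and 1.32 (SE 0.23, adjusted p = 0.000833) for EA3. The effect differed between lines (edgeR, adjusted p = 0.00554), at -1.71 (95% interval -2.45 to -0.97) for EA2 minus EA1 and -2.05 (95% interval -2.76 to -1.34) for EA3 minus EA1.

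Ephb6 (chr6:41605482-41620509, plus strand), whose kinase domain is known to lack catalytic activity, rose in all lines. EA1 had 5.13, 6.24, 1.07 and 6.46 CPM with DMSO and 11.5, 13.7, 15.9 and 19.8 with alectinib. EA2 had 6.98, 5.35, 6.62 and 6.44 and 62.5, 42.6, 80.5 and 50.01. EA3 had 6.82, 10.0, 9.37 and 12.9 and 56.7, 69.2, 49.97 and 99.3. The groups did not overlap in any line, and the treated levels of EA2 and EA3 exceeded every treated level of EA1. On the log2 scale the alectinib effect was 1.80 (SE 0.33, adjusted p = 0.00116) for EA1, 3.18 (SE 0.32, adjusted p = 2.01e-05) for EA2 and 2.80 (SE 0.31, adjusted p = 4.31e-05) for EA3, and the difference between lines did not pass the threshold (edgeR, adjusted p = 0.134).

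Ephb4, the receptor of Efnb2 in veins and many epithelia, was the most abundant EphB gene per kilobase with DMSO and did not pass in any line. Its level ran from 139 to 213 CPM with DMSO and 168 to 227 with alectinib in EA1, from 134 to 159 and 156 to 187 in EA2, and from 131 to 187 and 148 to 169 in EA3. Its share of the summed EphB level went from 86.5% to 68.7% in EA1, from 92.5% to 67.9% in EA2 and from 80.9% to 54.6% in EA3. Ephb6 took 27.2% of it in treated EA2 and 27.8% in treated EA3, and Ephb3 took 19.3% in treated EA1. Ephb2 was at most 0.773 CPM in EA2, and its log2 fold changes in EA1 and EA3 were -0.13 and 0.04.

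**Figure D2:**
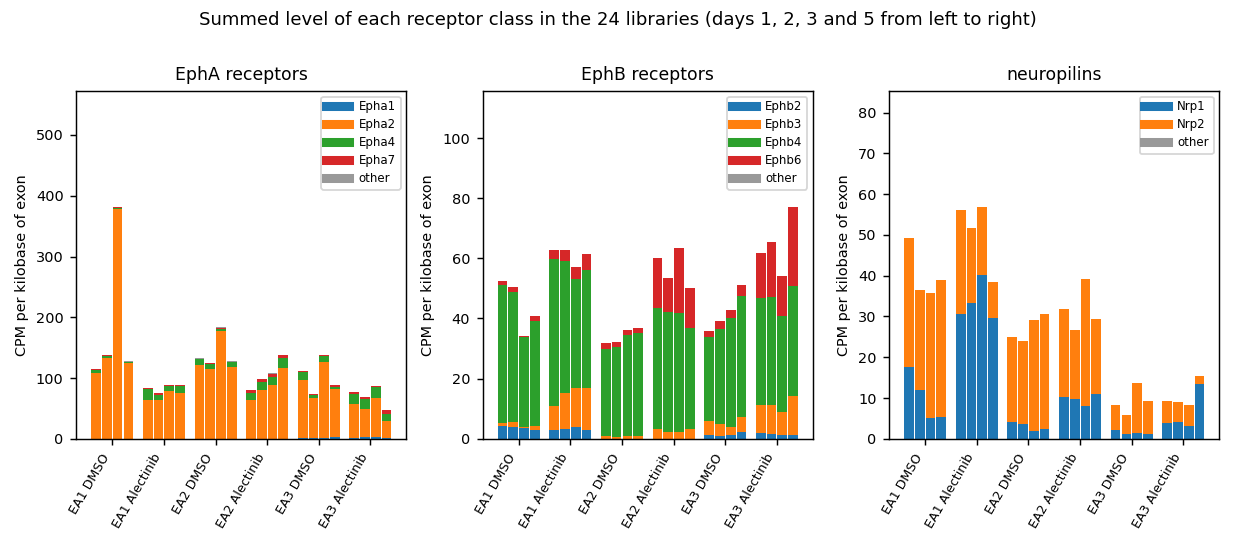
Summed level per kilobase of exon of the EphA receptors, EphB receptors and neuropilins in each of the 24 libraries, stacked by gene, with days 1, 2, 3 and 5 from left to right in each group. Epha2 fills most of every EphA bar, Ephb3 and Ephb6 take visible parts of the EphB bars with alectinib, and Nrp1 takes a larger part of the neuropilin bars with alectinib.

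Of the 5 ephrin-A ligands, 2 rose and 2 fell in EA1, none passed in EA2, and 2 fell in EA3, which are few genes to set beside the shares of all tested genes (19.0% higher and 14.6% lower for EA1, 13% and 11.3% for EA2, 17.5% and 15.1% for EA3). The test between lines passed for none of them by edgeR. Efna1, a ligand of Epha2, fell in EA1 and EA3. In EA1 the levels were 25.4, 35.7, 36.6 and 90.6 CPM with DMSO and 21.5, 22.3, 15.9 and 19.4 with alectinib. In EA3 they were 31.4, 79.7, 75.7 and 238 and 29.3, 34.8, 20.5 and 37.1, and in EA2 28.7, 41.6, 50.1 and 35.9 and 41.6, 52.8, 62.6 and 34.6. The groups overlapped in EA2 and EA3, and the DMSO levels of EA1 and EA3 were highest on day 5. Alectinib against DMSO gave log2 fold changes of -1.08 (SE 0.36, adjusted p = 0.0325) for EA1, 0.29 (SE 0.34, adjusted p = 0.582) for EA2 and -1.47 (SE 0.36, adjusted p = 0.00759) for EA3. Leaving out day 2, day 3 or day 5 lost the EA1 call, and leaving out day 3 lost that of EA3 (adjusted p = 0.0607).

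Efna1 in EA3 was also the only one of the 45 genes whose alectinib effect changed with day, at -1.11 on the log2 scale per doubling of days (SE 0.15, edgeR adjusted p = 0.0387), beside 0.0491% of all genes in EA3. None passed in EA1 (background 0.0210%) or EA2 (background 0%) by edgeR. At an unadjusted p under 0.05, 9 of the 45 genes did so in each line, beside 11.5%, 6.03% and 13.2% of all genes, and DESeq2 called 1, 0 and 4 of the 45 genes in EA1, EA2 and EA3, beside 2.31%, 0.51% and 3.27% of all genes to which it gave an adjusted p. The Efna1 call in EA3 was lost with day 1, 2 or 5 left out and with library size alone.

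Efna2 and Efna4, ligands of several EphA receptors, rose in EA1. Efna2 stood at 2.72, 1.34, 2.03 and 4.01 CPM with DMSO and 5.11, 5.39, 6.01 and 4.69 with alectinib, and Efna4 at 10.0, 10.2, 3.85 and 10.2 and 19.1, 17.8, 14.8 and 13.8. Neither overlapped between treatments in EA1. The log2 fold changes in EA1 were 1.15 (SE 0.31, adjusted p = 0.0115) for Efna2 and 1.00 (SE 0.24, adjusted p = 0.00652) for Efna4. In EA2 and EA3, they were 0.76 and 0.81 for Efna2 and 0.41 and 0.11 for Efna4, without passing the threshold. The Efna2 call was lost with day 2 or day 3 left out and with each line alone, and the Efna4 call with day 3 left out (adjusted p = 0.0632). Efna5, which also binds Ephb2, fell slightly in EA1 (log2 fold change -0.40, SE 0.13, adjusted p = 0.0318) and EA3 (log2 fold change -0.39, SE 0.13, adjusted p = 0.0356) and was at 0.00 in EA2. Both Efna5 calls were lost with day 1, day 3 or day 5 left out, without the day block, with library size alone, with no filter and with each line alone. Efna3 passed in no line and ranged from 0.628 to 17.8 CPM. Of its exon bases 14.1% are overlapped by an antisense gene, as are 10.5% of those of Efna4, and the strand setting of the counts is not given in the sources used here.

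The ephrin-B ligands passed the test in EA1 alone, and in opposite directions. Efnb1, a ligand of Ephb2 and Ephb3, rose in EA1 from 49.996, 47.9, 33.1 and 52.2 CPM with DMSO to 69.3, 88.8, 97.8 and 124 with alectinib, without overlap. Efnb2, the partner of Ephb4, went from 122, 84.2, 179.6 and 131 to 87.3, 73.0, 55.3 and 47.1 and overlapped by a single pair of libraries. The log2 fold changes in EA1 were 1.04 (SE 0.20, adjusted p = 0.00146) for Efnb1 and -0.96 (SE 0.23, adjusted p = 0.00566) for Efnb2. In EA2 and EA3 those of Efnb1 were 0.32 and 0.08, and those of Efnb2 were 0.20 and 0.12. The test between lines stayed above the threshold for both (edgeR, adjusted p = 0.0878 for Efnb1 and 0.0553 for Efnb2). DESeq2 called both, and Efnb2 also passed with library size alone, with no filter, with a minimum of 10 counts, without the day block and without day 2. Efnb3 lay between 0.824 and 4.54 CPM and did not pass.

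**Figure D3:**
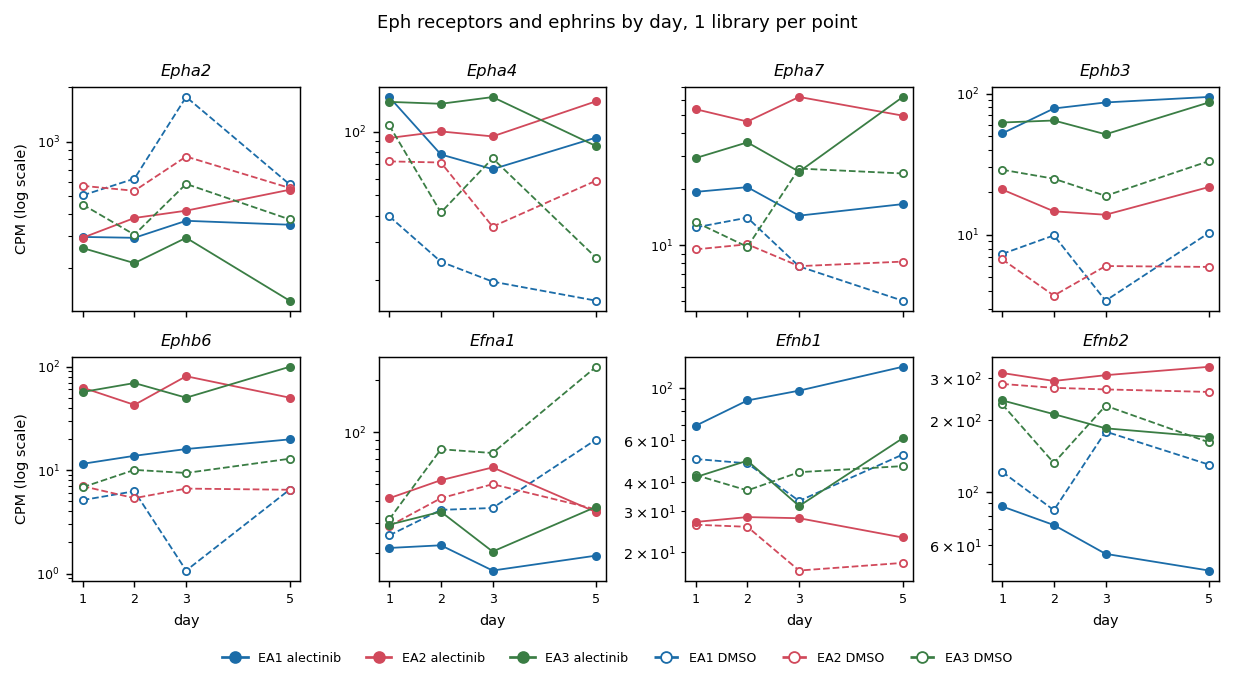
CPM of 8 Eph receptor and ephrin genes by day on log axes, 1 point per library, with filled points and solid lines for alectinib and open points and dashed lines for DMSO. The treated and untreated lines of Ephb3 and Ephb6 are separate in every cell line, and the DMSO points of Efna1 are highest on day 5 in EA1 and EA3.

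Class 3 semaphorins, the secreted ones, rose or did not pass in the test by edgeR. Of 6 tested, 3 rose in EA1, 3 in EA2 and 5 in EA3, where 19.0%, 13% and 17.5% of all tested genes were higher. Sema3D (chr5:12383385-12588948, plus strand) had the highest fold change of the 45 genes in EA2 and EA3. Its EA1 levels were 0.105, 0.668, 0.214 and 0.259 CPM with DMSO and 1.74, 2.57, 4.76 and 6.37 with alectinib. EA2 had 0.269, 0.297, 0.501 and 1.12 and 4.35, 8.31, 35.6 and 34.8, and EA3 0.628, 0.933, 1.45 and 0.494 and 9.61, 21.8, 26.3 and 27.4. Each line was near the floor with DMSO, with 11, 23 and 29 counts over 4 libraries, and no groups overlapped. Sema3D did not pass the count filter in the DMSO libraries alone and entered the test through the alectinib libraries. The rank of its fold change rests on these low DMSO counts. The pooled ratios with counting intervals were 12.998 (7.07 to 26.6) for EA1, 36.7 (24.3 to 58.3) for EA2 and 24.2 (16.7 to 36.3) for EA3, and the fitted log2 fold changes were 3.53 (SE 0.48, adjusted p = 0.000158) for EA1, 5.08 (SE 0.45, adjusted p = 9.38e-06) for EA2 and 4.51 (SE 0.41, adjusted p = 9.26e-06) for EA3.

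Sema3A, the founding repulsive axon guidance cue, which binds Nrp1, rose in each line. EA1 had 201, 166, 116 and 194 CPM with DMSO and 397, 312, 337 and 346 with alectinib. EA2 had 60.6, 52.6, 48.9 and 56.4 and 95.4, 102, 216 and 110.4. EA3 had 51.2, 38.4, 107 and 45.6 and 91.8, 115, 154 and 97.3. The groups overlapped in EA3 through the day 3 DMSO library. The log2 fold changes were 1.06 (SE 0.22, adjusted p = 0.00293) for EA1, 1.17 (SE 0.23, adjusted p = 0.00219) for EA2 and 1.01 (SE 0.23, adjusted p = 0.00447) for EA3, and EA2 minus EA1 was 0.11 (95% interval -0.57 to 0.79). The EA3 call was lost with day 2 left out (adjusted p = 0.0566).

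Sema3F and Sema3B lie close together and are studied as tumour suppressor genes in lung cancer. Sema3F, a ligand of Nrp2, rose in every line. Its levels were 58.1, 82.3, 41.4 and 94.0 CPM with DMSO and 126, 135, 145 and 157 with alectinib in EA1. They were 9.85, 6.69, 17.5 and 16.3 and 38.7, 32.3, 55.8 and 50.1 in EA2, and 62.8, 115, 113 and 142 and 149, 182, 184 and 234 in EA3. No line had overlapping groups. Fitted log2 fold changes were 1.09 (SE 0.18, adjusted p = 0.000701) for EA1, 1.87 (SE 0.19, adjusted p = 2.48e-05) for EA2 and 0.83 (SE 0.18, adjusted p = 0.00366) for EA3, and the difference between lines did not pass (edgeR, adjusted p = 0.0565).

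Sema3B rose in EA3 and passed in neither other line. In EA3 it went from 2.87, 4.32, 4.62 and 10.4 CPM with DMSO to 13.9, 23.99, 38.6 and 39.4 with alectinib. EA1 already held 34.1, 46.3, 48.8 and 51.4 with DMSO and had 46.1, 59.0, 67.7 and 74.9 with alectinib, while EA2 had 7.52, 5.50, 13.2 and 9.54 and 12.9, 9.01, 10.9 and 8.77. Treated EA3 lay above untreated EA3 in all libraries, and its highest treated level was below every treated level of EA1. On the log2 scale the alectinib effect was 0.45 (SE 0.19, adjusted p = 0.0876) for EA1, 0.26 (SE 0.21, adjusted p = 0.411) for EA2 and 2.42 (SE 0.22, adjusted p = 8.81e-06) for EA3. The effect differed between lines (edgeR, adjusted p = 0.00157), at 1.97 (95% interval 1.35 to 2.59) for EA3 minus EA1 and 2.17 (95% interval 1.52 to 2.81) for EA3 minus EA2.

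Sema3C, a ligand of both neuropilins, was the most abundant class 3 gene on average in every group. It rose in EA3 from 424, 273, 468 and 191 CPM with DMSO to 813, 949.8, 939 and 1569 with alectinib. EA1 had 885, 734, 1015 and 659 and 1034, 1212, 1659 and 1739, and EA2 332, 354, 197 and 273 and 538, 536, 633 and 357. The groups did not overlap in any line, yet only the EA3 change passed, with log2 fold changes of 0.76 (SE 0.31, adjusted p = 0.0709) for EA1, 0.84 (SE 0.31, adjusted p = 0.0662) for EA2 and 1.68 (SE 0.32, adjusted p = 0.00171) for EA3. Sema3C was also called in EA1 and EA2 by DESeq2, without the day block, with no filter and with each line alone, and in EA2 without day 5. Per kilobase, Sema3C made up 69.6%, 69.7% and 48.7% of the class with DMSO in EA1, EA2 and EA3 and 72.0%, 65.8% and 67.6% with alectinib. Sema3E, which binds Plxnd1 without a neuropilin, did not pass, and its log2 fold changes were -0.51, 0.77 and -0.37. With no filter on low counts, Sema3E was called lower in EA1 and higher in EA2, and with each line alone it was called higher in EA2.

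Class 4 semaphorins are transmembrane proteins, and they changed in both directions. Sema4F rose in all 3 lines from low levels. In EA1 it had 0.105, 0, 0.107 and 0.259 CPM with DMSO and 0.675, 1.35, 0.828 and 1.09 with alectinib. EA2 had 0.985, 1.04, 1.40 and 1.12 and 6.91, 6.72, 12.3 and 11.0, and EA3 1.17, 0.233, 0.792 and 1.48 and 12.01, 13.8, 9.98 and 5.73. No groups overlapped. Pooled counts over 4 libraries went from 4 to 39 in EA1, a ratio of 8.66 (3.12 to 33.4), and from 30 to 416 in EA3, a ratio of 11.6 (8.01 to 17.4). The fitted log2 fold changes were 2.95 (SE 0.70, adjusted p = 0.00578) for EA1, 2.98 (SE 0.48, adjusted p = 0.000533) for EA2 and 3.52 (SE 0.51, adjusted p = 0.000243) for EA3.

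Sema4B and Sema4D fell, each in 2 lines. Sema4B, the most abundant of the class per kilobase on average in every group, held 64.6, 61.8, 129 and 81.8 CPM with DMSO and 48.7, 30.4, 38.1 and 36.1 with alectinib in EA2. In EA3 the values were 106, 102, 165 and 167 and 62.7, 52.8, 43.8 and 51.2. Its alectinib libraries lay below the DMSO libraries in all 3 lines, EA1 included, where the change did not pass. Alectinib against DMSO gave log2 fold changes of -0.54 (SE 0.22, adjusted p = 0.0743) for EA1, -1.09 (SE 0.23, adjusted p = 0.00357) for EA2 and -1.33 (SE 0.23, adjusted p = 0.000782) for EA3. Sema4D, the ligand of Plxnb1, went from 13.7, 10.7, 15.6 and 15.4 to 8.49, 4.41, 4.76 and 3.18 in EA1 and from 23.2, 23.5, 23.8 and 24.5 to 18.7, 14.8, 15.5 and 8.77 in EA2, without overlap. Its log2 fold changes were -1.47 (SE 0.27, adjusted p = 0.00115) for EA1, -0.76 (SE 0.25, adjusted p = 0.0416) for EA2 and -0.30 (SE 0.25, adjusted p = 0.383) for EA3, and the EA2 call was lost when day 2, 3 or 5 was left out and with all 26 libraries. Sema4A, Sema4C and Sema4G passed in no line, and Sema4C lay between -0.17 and 0.27 on the log2 scale.

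Semaphorins of classes 5 to 7 fell or did not pass by edgeR. Sema7A (chr9:57940112-57962865, plus strand) is lipid-anchored and binds beta-1 integrins and Plxnc1. In EA2 it went from 37.7, 28.5, 98.9 and 60.3 CPM with DMSO to 3.26, 1.41, 1.80 and 0.787 with alectinib. EA1 had 3.77, 2.45, 1.82 and 6.33 and 1.35, 0.490, 0.311 and 0.335, and EA3 8.52, 10.5, 25.7 and 30.5 and 6.56, 5.78, 9.79 and 2.16. The treated and untreated groups overlapped in EA3 only. In EA1, 124 counts over the DMSO libraries faced 25 over the alectinib libraries, a pooled ratio of 0.179 (0.112 to 0.277). The log2 fold changes were -2.53 (SE 0.67, adjusted p = 0.0113) for EA1, -4.90 (SE 0.60, adjusted p = 7.62e-05) for EA2 and -1.51 (SE 0.52, adjusted p = 0.0405) for EA3. The effect differed between lines (edgeR, adjusted p = 0.0417), at 3.39 (95% interval 1.71 to 5.06) for EA3 minus EA2. The EA1 call was lost with day 3 left out (adjusted p = 0.0556). The EA3 call was lost with day 2, 3 or 5 left out, with library size alone and with each line fitted alone, at an adjusted p of up to 0.126.

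Sema6B, a transmembrane ligand of A-type plexins, fell in EA2 and EA3. EA2 had 26.1, 25.4, 13.8 and 16.7 CPM with DMSO and 3.95, 2.47, 2.03 and 1.24 with alectinib. EA3 had 37.1, 49.0, 32.6 and 30.0 and 4.53, 2.29, 3.67 and 5.52. In EA1 the values were 31.0, 19.8, 8.44 and 11.6 and 8.30, 11.5, 12.3 and 11.0, which overlapped. Fitted log2 fold changes were -0.56 (SE 0.36, adjusted p = 0.246) for EA1, -3.11 (SE 0.40, adjusted p = 0.000103) for EA2 and -3.22 (SE 0.38, adjusted p = 6.96e-05) for EA3, and the effect differed between lines (edgeR, adjusted p = 0.0112). EA2 minus EA1 was -2.55 (95% interval -3.69 to -1.40) and EA3 minus EA1 was -2.66 (95% interval -3.78 to -1.55).

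Sema6D, a ligand of Plxna1, also fell in EA2 and EA3. EA2 had 29.9, 25.3, 42.3 and 54.4 CPM with DMSO and 9.19, 4.24, 9.25 and 2.92 with alectinib. EA3 had 26.2, 25.4, 70.6 and 63.4 and 5.54, 6.54, 10.2 and 22.3, and EA1 32.4, 23.8, 20.7 and 24.4 and 9.17, 12.4, 17.3 and 16.2. All treated libraries lay below the untreated ones of their line, also in EA1. On the log2 scale the alectinib effect was -0.90 (SE 0.34, adjusted p = 0.057) for EA1, -2.61 (SE 0.37, adjusted p = 0.000219) for EA2 and -2.12 (SE 0.35, adjusted p = 0.000629) for EA3, and the difference between lines did not pass (edgeR, adjusted p = 0.0923). Sema5A, Sema6A and Sema6C passed in no line. Sema6A had 0 counts in all 8 EA2 libraries, and its log2 fold changes were 1.75 in EA1 and 0.67 in EA3. The fold changes of Sema6C were 1.40, 1.06 and 0.56. Sema6C was called higher in EA1 by DESeq2, with library size alone, with no filter, with a minimum of 10 counts and without day 5, and in EA2 with no filter and without day 5. Sema6A was called higher in EA1 with no filter, with each line alone and without day 5.

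Of the 8 plexins tested, Plxna1 and Plxnb3 rose in all lines, beside 5.78% of all tested genes. By line, 4 rose and 2 fell for EA1 (19.0% and 14.6% of all tested genes), 2 and 1 for EA2 (13% and 11.3%), and 3 and 0 for EA3 (17.5% and 15.1%). Plxna1, a co-receptor for Sema3A and a receptor of Sema6D, had 204, 152, 239.7 and 155 CPM with DMSO and 379, 339.5, 351 and 319 with alectinib in EA1. EA2 had 153, 144, 154 and 209.6 and 297, 298, 646 and 428, and EA3 251, 136, 398 and 247 and 449, 461, 469.8 and 455. No groups overlapped, and treated EA3 stayed within a narrow range. Alectinib against DMSO gave log2 fold changes of 0.91 (SE 0.23, adjusted p = 0.00759) for EA1, 1.27 (SE 0.23, adjusted p = 0.00131) for EA2 and 0.93 (SE 0.23, adjusted p = 0.00767) for EA3. The EA1 call was lost with day 5 left out and the EA3 call with day 2 left out (adjusted p of 0.0588 and 0.0872). An antisense gene overlaps 10.7% of its exon bases. Plxnb3, a receptor of Sema5A, was near the floor with DMSO, at 6, 12 and 5 counts over the 4 libraries of EA1, EA2 and EA3. It did not pass the count filter in the DMSO libraries alone and entered the test through the alectinib libraries. It held 3.96, 1.59, 0.932 and 1.51 CPM in treated EA1, 5.93, 7.42, 6.77 and 6.07 in treated EA2 and 0.370, 0.981, 1.32 and 2.16 in treated EA3, against at most 0.494 in any DMSO library. The groups overlapped in EA3 and not in EA1 or EA2. The pooled ratios were 11.99 (5.28 to 33.6), 21.2 (11.9 to 41.7) and 7.87 (3.14 to 25.4), and the adjusted p-values of edgeR were 0.00119, 0.000122 and 0.00748.

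Plxna4, another co-receptor of Nrp1, fell in EA1 and EA2. EA1 had 55.9, 33.4, 46.2 and 42.0 CPM with DMSO and 23.3, 15.1, 11.5 and 8.88 with alectinib. EA2 had 46.1, 47.9, 60.4 and 76.0 and 23.7, 19.6, 23.0 and 6.86, and EA3 19.7, 8.40, 66.2 and 25.2 and 14.8, 13.8, 18.7 and 23.3. The groups were apart in EA1 and EA2 and overlapped in EA3. The log2 fold changes were -1.66 (SE 0.41, adjusted p = 0.00713) for EA1, -1.72 (SE 0.41, adjusted p = 0.00832) for EA2 and -0.43 (SE 0.41, adjusted p = 0.454) for EA3. Plxnb1, the receptor of Sema4D, rose in EA1 (log2 fold change 0.97, SE 0.20, adjusted p = 0.00234) and EA3 (log2 fold change 0.76, SE 0.20, adjusted p = 0.0106) and was at 0.10 in EA2. Plxnd1 rose in EA1 (log2 fold change 0.87, SE 0.30, adjusted p = 0.0407) and Plxna3 fell there (log2 fold change -0.75, SE 0.24, adjusted p = 0.0262). Leaving out days lost the EA3 call of Plxnb1 (day 2 or 5), the call of Plxnd1 (day 2, 3 or 5) and that of Plxna3 (day 2 or 3). Those of Plxnd1 and Plxna3 were also lost without the day block, and that of Plxnd1 with all 26 libraries. Plxnb2, the most abundant plexin per kilobase on average in every group, and Plxna2 passed in no line, with fold changes of Plxnb2 between 0.18 and 0.41.

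The neuropilins, co-receptors of class 3 semaphorins and of VEGF, shifted toward Nrp1, which rose in all 3 lines. Nrp1 (chr8:128358604-128503363, plus strand) had 173, 117, 50.7 and 51.6 CPM with DMSO and 300.2, 325, 394 and 289.7 with alectinib in EA1. EA2 had 39.6, 36.1, 17.6 and 23.8 and 100.1, 96.3, 78.8 and 108, and EA3 21.7, 12.2, 13.1 and 11.9 and 37.6, 41.0, 30.9 and 131. Groups were apart in every line, and the treated day 5 library of EA3 stood far above the other 3. Fitted log2 fold changes were 1.93 (SE 0.40, adjusted p = 0.00278) for EA1, 1.77 (SE 0.39, adjusted p = 0.00514) for EA2 and 1.77 (SE 0.41, adjusted p = 0.00573) for EA3. Nrp2, the receptor of Sema3F, did not pass, with fold changes of -0.87 (SE 0.32, adjusted p = 0.0512) for EA1, -0.17 (SE 0.31, adjusted p = 0.74) for EA2 and -0.83 (SE 0.33, adjusted p = 0.0693) for EA3. Nrp2 was called lower in EA1 and EA3 by DESeq2, with no filter, with all 26 libraries and without day 2, and in EA1 also with a minimum of 10 counts and with each line alone. Per kilobase, Nrp1 made up 24.2%, 11.4% and 17.9% of the neuropilin level with DMSO and 66.6%, 31.8% and 53.4% with alectinib. The ranges of these shares over days were apart in each line.

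**Figure D4:**
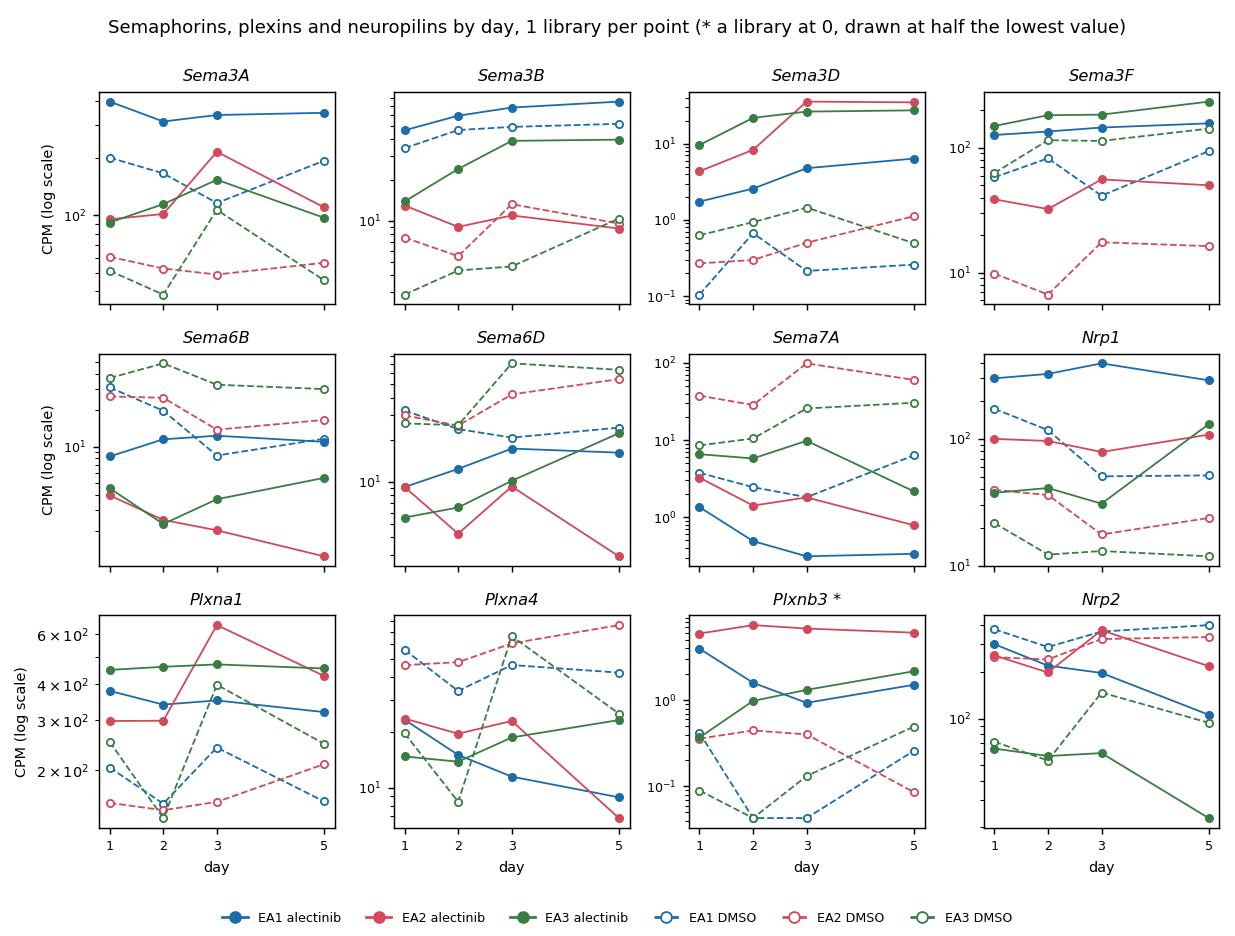
CPM of 12 semaphorin, plexin and neuropilin genes by day on log axes, 1 point per library, with filled points and solid lines for alectinib and open points and dashed lines for DMSO. An asterisk marks a gene with a library at 0, drawn below its lowest other value. The Sema3D and Plxnb3 levels of each line are higher with alectinib on every day, and the Sema7A levels are lower.

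A few more genes that missed the threshold passed under other settings. Epha2 was called lower in EA2 by DESeq2, with no filter, with EA2 alone and without day 5. Epha5 was called lower in EA3 by DESeq2, with no filter, without the day block, with all 26 libraries and without day 1. Sema6D was called lower in EA1 by DESeq2, with no filter, with EA1 alone and without day 5, and Sema4B there with no filter and with EA1 alone. Efna2 was called higher in EA3 by DESeq2, with library size alone, with a minimum of 10 counts and with all 26 libraries, and in EA2 with that minimum. Sema4G was called higher in EA1 by DESeq2, with no filter and without day 5, Plxna2 in EA3 with no filter and without day 3, and Plxnb2 in EA2 with EA2 alone. With each line alone, Plxnb3 was not called in EA1 or EA3, nor Sema4F in EA1.

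In all, the alectinib effect differed between lines for 5 of the 45 genes (Epha7, Ephb3, Sema3B, Sema6B and Sema7A), beside 6.84% of all tested genes. Just outside the threshold lay Efnb2 and Sema3F. Ephb3 and Sema3B kept their calls with any 1 day left out. Epha7 lost it without day 1, 3 or 5, Sema6B without day 2, 3 or 5 and Sema7A without day 1, 2 or 3. With the libraries labelled day 7 included as EA3, only Ephb3 passed. Other settings also called Sema3F (DESeq2 and no filter), Sema6D (these and without day 1), Efna1 (likewise) and Ephb6 (no filter and without day 3). Efnb1 and Efnb2 were called under the settings named above for them. No filter also called Epha4, Plxna4, Plxnd1, Sema3C, Sema3E, Sema4D and Sema4G.

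Untreated levels also differed between lines. In the 12 DMSO libraries, 33 of 43 tested genes differed between lines (edgeR, 2 degrees of freedom), beside 55.6% of all 12886 genes tested there. Some of these genes were near the floor in a line. Ephb2, a receptor of ephrin-B ligands, had mean DMSO levels of 45.3 ± 7.79 for EA1, 0.395 ± 0.267 for EA2 and 18.5 ± 6.78 for EA3 (CPM, SD, n = 4; adjusted p = 1.64e-07). Epha1 stood at 0.605 ± 0.646 for EA1, 0.334 ± 0.127 for EA2 and 7.23 ± 3.37 for EA3 (adjusted p = 8.92e-06), so that EA3 held nearly all of it. Sema4A, which is also known from T cell priming, followed the same pattern with 0.732 ± 0.363 for EA1, 0.384 ± 0.230 for EA2 and 7.83 ± 3.42 for EA3 (adjusted p = 2.40e-06). Sema4G stood at 2.04 ± 2.28 for EA1, 4.003 ± 2.92 for EA2 and 41.6 ± 35.0 for EA3 (adjusted p = 0.000127). Sema7A was highest in EA2, at 3.59 ± 2.00 for EA1, 56.4 ± 31.4 for EA2 and 18.8 ± 10.9 for EA3 (adjusted p = 1.41e-05), and Efna5 was too, at 50.5 ± 10.4 for EA1, 178 ± 21.8 for EA2 and 107 ± 22.7 for EA3 (adjusted p = 3.23e-05). EA1 had the highest levels of Nrp1, at 98.1 ± 58.8 for EA1, 29.3 ± 10.3 for EA2 and 14.7 ± 4.69 for EA3 (adjusted p = 4.74e-06), of Sema3B, at 45.2 ± 7.68 for EA1, 8.95 ± 3.30 for EA2 and 5.55 ± 3.31 for EA3 (adjusted p = 3.86e-06) and of Sema3A, at 169 ± 38.6 for EA1, 54.6 ± 5.02 for EA2 and 60.6 ± 31.4 for EA3 (adjusted p = 0.000408). EA3 was lowest in Nrp2, at 357 ± 47.7 for EA1, 287 ± 49.7 for EA2 and 91.6 ± 40.6 for EA3 (adjusted p = 1.14e-05). Ephb4, Plxnd1, Plxna1, Efna2, Efna3, Efnb3, Epha7, Ephb6, Sema6C and Sema6D did not pass, and Plxnb3 and Sema3D were too low to be tested in the DMSO libraries. Per kilobase, Epha2 had the highest mean of the 53 genes with DMSO in EA1 (186 ± 128 CPM per kilobase) and EA2 (133 ± 29.5). The EA1 mean rests on the day 3 library, without which it was 122 ± 12.9 (n = 3), and Sema3C (115 ± 22.2, or 106 ± 16.1 without day 3) lay within its spread. In EA3 the highest mean was that of Plxnb2 (108 ± 22.1), where Epha2 came next within its spread (91.5 ± 25.6).

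**Figure D5:**
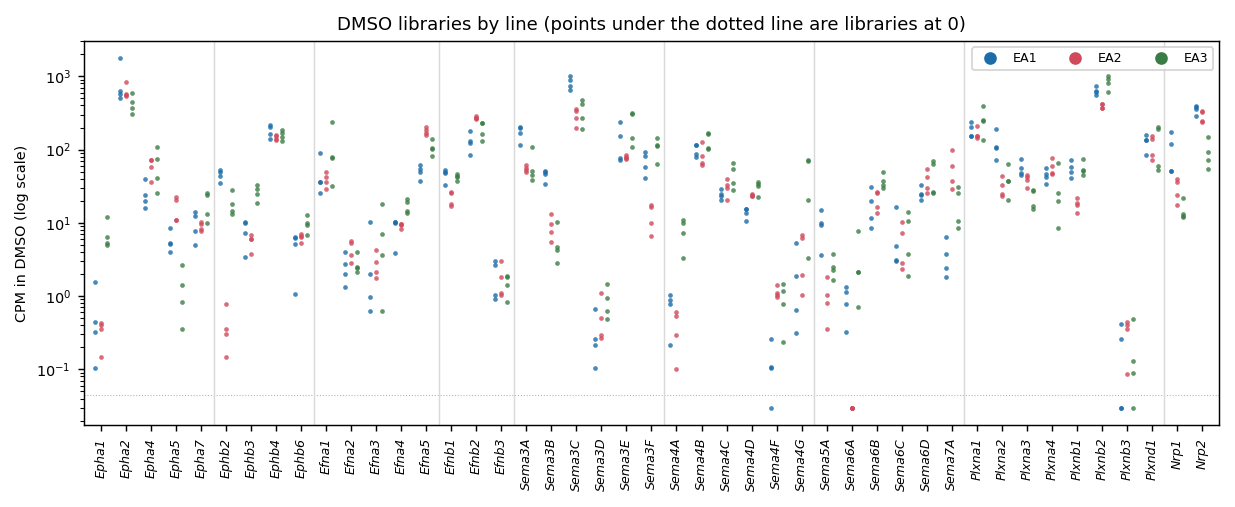
CPM of the 45 tested genes in the 12 DMSO libraries on a log axis, 1 point per library and 1 colour per line, with libraries at 0 drawn under the dotted line. The points of Ephb2 and Sema6A are lowest for EA2, and those of Epha1 and Sema4A are highest for EA3.

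Genes that act next to these receptors were taken from 3 lists. Of 31 tested Eph and ephrin partners, 8 were higher and 4 lower in EA1, 1 higher and 2 lower in EA2, and 4 higher and 3 lower in EA3. These are 25.8% and 12.9% of the list, 3.23% and 6.45%, and 12.9% and 9.68%, beside 19.0% and 14.6%, 13% and 11.3%, and 17.5% and 15.1% of all tested genes. The median log2 fold changes were 0.08, 0.03 and 0.12, beside 0.06, 0.00 and 0.07 over all genes. Rasa1, a Ras GTPase-activating protein recruited by EphB receptors, fell in all lines, at -0.92 (adjusted p = 0.00463), -1.63 (adjusted p = 0.000111) and -0.73 (adjusted p = 0.0161). Ngef, an exchange factor bound by Epha4, fell as well, at -1.85 (adjusted p = 0.000252), -1.30 (adjusted p = 0.00109) and -1.69 (adjusted p = 0.000194). Adam10, a protease that cleaves ephrins, rose in EA1 (1.56, adjusted p = 2.66e-05) and gave 0.34 in EA2 and 0.43 in EA3, where it did not pass.

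Of 27 tested semaphorin and plexin partners, 7 were higher and 0 lower in EA1, 9 higher and 4 lower in EA2, and 14 higher and 3 lower in EA3. As shares of the list these are 25.9% and 0%, 33.3% and 14.8%, and 51.9% and 11.1%, against the shares of all genes just given. The medians were 0.42, 0.29 and 0.58. Rnd3, a small GTPase, rose by 1.90, 2.30 and 2.01 on the log2 scale, Mras, a Ras relative, by 0.70, 1.22 and 2.13, and the receptor kinases Met and Erbb2, which associate with B-type plexins, by 1.04, 1.13 and 1.13 and by 0.48, 0.71 and 0.50. All of these passed in every line. Rap1Gap, which like plexins restrains Rap1, was lower in EA2 at -2.70 (adjusted p = 0.000119) and in EA3 at -1.41 (adjusted p = 0.00581).

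Of the 8 neuropilin and VEGF partners, 1 was higher and 2 lower in EA1, 2 higher and 3 lower in EA2, and 1 higher and 4 lower in EA3. These shares, 12.5% and 25%, 25% and 37.5%, and 12.5% and 50%, rest on few genes and stand beside the same shares of all genes. The medians were -0.69, -1.11 and -0.43. Pgf, placental growth factor, fell in every line, at -3.04 (adjusted p = 0.0233), -2.46 (adjusted p = 0.0475) and -2.95 (adjusted p = 0.0219). Vegfa fell in EA1 (-1.31, adjusted p = 0.0482) and EA3 (-1.61, adjusted p = 0.018), and Flt1, a receptor of both, was lower in EA2 at -1.45 (adjusted p = 0.00351) and in EA3 at -2.08 (adjusted p = 0.000338). The genes called higher were Vegfd, a ligand of lymphatic vessels, in EA1 (1.18, adjusted p = 0.0275) and EA2 (1.11, adjusted p = 0.033), and Vegfc, its relative, in EA2 (1.66, adjusted p = 0.00098). Flt4, the receptor of both, was higher in EA3 (1.21, adjusted p = 0.0191) and lower in EA2 (-3.00, adjusted p = 0.000232). Vegfb was lower in EA3 (-0.65, adjusted p = 0.0175).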

How the data were processed

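Poly-A RNA of EA1, EA2 and EA3 was sequenced as stranded paired-end libraries. Per the labels and the study's methods, the authors trimmed reads, checked them with FastQC, aligned them to mm10 with STAR and deposited raw read counts per gene. The annotation release and the strand setting of the counting are not given in the sources used here. Samples were grouped by the line, treatment and day in their titles. The 24 rows without a gene, at most 0.201% of a library, were left out.

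Counts were tested with edgeR 4.0.16 (R 4.3.3) by quasi-likelihood, with TMM factors and filterByExpr, over 24 libraries in 1 fit with 12 line and day blocks and an alectinib effect per line. The 4 days of a line served as replicates. Further tests addressed differences between lines (2 degrees of freedom), DMSO levels and the slope on log2 day. P-values were adjusted by Benjamini-Hochberg over all genes tested, with a threshold of 0.05. The edgeR tests of the alectinib effect in EA1, of differences between lines and of DMSO levels were also run on simulated counts. Those counts held no day effect, and the other tests and steps were not run on simulated data. The labels give treated and untreated libraries a shared day, which is why the day was blocked. Their deviations correlated between -0.300 and 0.549. Counting intervals of low genes cover counting error only, at 95%.

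The gene families, the partner and marker lists and the tests were chosen with earlier results of these data known, and the members of the families were then taken by symbol. Genes were described library by library where a change passed the threshold and was 1 or more in size on the log2 scale, or where the effect differed between lines. Some of them are given by library only in lines where they passed, and Plxnb3 only with alectinib. Positions come from GENCODE on GRCm38 and upstream sequence from RefSeq on GRCm38.p6. Alternatives were DESeq2 1.42.0, other scalings and filters, no block, each line alone, all 26 libraries, a linear day and each day left out.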

Additional observations from a re-analysis of the deposited data

Results flagged for a closer look

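Of 150 groups of 4 libraries that were examined for a library apart from the others (Dixon's criterion), 10 had one, and chance alone flags about 1 in 20 groups. With DMSO, Efna1 in EA1 was at 90.6 CPM on day 5 against 25.4 to 36.6 on the other days, and Efna4 in EA1 was at 3.85 on day 3 against 10.0 to 10.2. Epha2 in DMSO libraries of day 3 was at 1766 CPM in EA1 against 505 to 624 and at 827 in EA2 against 535 to 569.7. Nrp1 in EA3 with DMSO was at 21.7 on day 1 against 11.9 to 13.1, and Plxna1 in EA2 with DMSO was at 209.6 on day 5 against 144 to 154. With alectinib, Epha4 on day 5 was at 139 in EA2 against 93.3 to 100.2 and at 85.5 in EA3 against 135 to 146. Nrp1 in EA3 with alectinib reached 130.7 on day 5 against 30.9 to 41.0, and Sema3A in EA2 with alectinib reached 216 on day 3 against 95.4 to 110.4.

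For 5 genes the edgeR test of the difference itself found unequal alectinib effects in the lines. The adjusted p-values were 0.00157 for Sema3B, 0.00554 for Ephb3, 0.0112 for Sema6B, 0.0294 for Epha7 and 0.0417 for Sema7A.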

How the results depend on the processing

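The direction of a call under each alternative was followed for genes with a called change of 1 or more in size on the log2 scale, or with an effect that differed between lines. None of their 57 called fold changes turned its direction under an alternative that tested it, which was not run for the other 7 of the 64 calls. The number of genes with an alectinib effect that differed between lines moved from 5 to 10 with DESeq2, to 17 with no filter on low counts and to 1 with all 26 libraries. The number with an effect that changed with day in EA3 moved from 1 to 4 with DESeq2, 0 with library size alone, 2 with no filter and 2 with day on a linear scale, and in EA1 from 0 to 1 with DESeq2. With each day left out in turn, genes lower in EA1 ranged from 5 to 8 and in EA3 from 4 to 7, differences between lines from 3 to 5, and changes with day in EA3 from 0 to 3. Without replicate block (the day pairing dropped), EA1 had 16 genes higher and 7 lower, EA2 11 and 7, and EA3 14 and 7, with 6 differing between lines and 29 between untreated lines. For the counts so far, shares of all tested genes under the same settings are given only for the day effect by DESeq2. These counts show how calls moved and do not set the genes described here apart from all genes. Of all 64 called fold changes, those no longer called numbered 12 without day 2, 12 without day 3, 12 without day 5, 4 without day 1, 3 with all 26 libraries, 7 with each line alone, 5 without the block, 3 with library size alone, 2 with no filter and 0 with DESeq2 or its size factors. A minimum of 10 counts in every library removed 14 calls, since it left Sema3D, Plxnb3, Sema4F, Epha5 and Sema7A untested. Scaling by library size alone moved the median log2 fold change of all genes in EA3 from 0.07 to 0.18 and the calls over all genes there from 2493 higher and 2157 lower to 3060 and 1666, with 15 and 5 among the genes described here. The causes of these changes were not tested. The 8 genes with at most 10 counts in any library were not tested.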

Other observations

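The pair of libraries labelled EA3 day 7 was left out of the comparisons, and its values have no replicate. Ephb2 was at 0.910 CPM with DMSO and 0.174 with alectinib and Sema6A at 0 in both, which lies within the EA2 range for Sema6A and near it for Ephb2 and outside the EA3 range for both. Epha4 was at 35.5 and 113, Ephb6 at 2.21 and 100.4, Nrp1 at 8.97 and 108, and Sema3D at 0.260 and 39.4. Sema7A was at 61.2 with DMSO and 0.869 with alectinib, and Sema6D at 54.3 and 2.52.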
